A study of Mus musculus with 9 samples.

Results

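The interferon-gamma GTPases and response genes described here are 29 mouse genes listed by symbol, with earlier results of these data known. All 29 were found among the 25124 genes of the deposited expression table. They comprise 11 guanylate-binding protein genes, 6 immunity-related GTPase genes and 12 other genes that carry, restrain or carry out the interferon-gamma response. RNA came from whole ear skin of C57BL/6 mice in 2 groups, both of which had Staphylococcus epidermidis strain LM087, a bacterium of normal skin, swabbed on the ears every other day and were sampled on day 8. The first group (4 libraries) was also given an anti-CTLA-4 antibody, which blocks a T cell receptor that restrains T cell activation, and the second (5 libraries) had the bacterium alone. Every library thus came from colonised skin, and skin with no bacterium or with the antibody alone was not analysed here. Replicates are numbered in the labels, which do not say that each is its own mouse, so p-values measure the spread between these libraries, which may be partly technical.

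Values are TPM, in which reads are divided by the gene's length and by a library total. The length in the table was the genomic span of the gene, introns included, so TPM is a level per base of span here, and genes with long introns get low values. Multiplied by that length, the TPM values of each library were whole multiples of 1 constant (100.0% of the 10347 to 11636 genes checked per library, within 0.1 reads), so reads per gene could be recovered. The recovered reads came to between 10213774 and 13868671 per library with the antibody and between 10914656 and 13774478 with the bacterium alone. Whole skin was sampled, so a change in the number of cells of a type and a change in RNA per cell cannot be told apart. Markers of keratinocytes, the main cells of epidermis, summed to between 18880 and 22160 TPM with the antibody and between 20760 and 26440 TPM with the bacterium alone. Their members went different ways, since Krt1 rose (log2 fold change 0.96, limma adjusted p = 0.0245) while Krt10, most of the sum, had a log2 fold change of -0.40 (limma adjusted p = 0.0809).

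Interferon gamma is made mainly by T cells and natural killer cells. It binds a receptor of the chains IFNGR1 and IFNGR2, the kinases JAK1 and JAK2 pass the signal on, and DNA elements called GAS sites lie at many of the genes that respond first. The factor IRF1, itself induced early, then acts with others at interferon-stimulated response elements (ISRE). Guanylate-binding proteins and immunity-related GTPases are large families of GTP-hydrolysing proteins that gather on vacuoles and membranes of intracellular microbes. In mice these families are much used as a readout of interferon gamma, although type I interferons induce many of the same genes.

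The DNA elements are shown because the choice of genes did not use them and because they differ among the GTPase genes with a promoter window. RefSeq windows of 300 bases (250 before to 50 after each transcript start, GRCm38.p6) were matched by symbol for 19 of the 29 genes, some with more than 1 start. Windows were not used for Gbp4, Gbp6, Gbp8, Gbp9, Gbp10, Gbp11, Iigp1, Batf2, Ido1 and Nos2. The GAS pattern TTCNNNGAA, which reads the same on both strands, and the ISRE pattern GAAANNGAAA on either strand were searched. The 10 of 17 GTPase genes with a window had 11 windows in all. Of these 11 windows, 10 held the ISRE pattern and 6 the GAS pattern, against 3.44% and 8.30% of all 32851 windows. Each of the 10 genes had the ISRE pattern in at least 1 window, whereas Gbp2, Gbp2b, Gbp3 and Irgm1 had no GAS pattern. Among the 9 other genes with a window, Irf1 and Irf8 held the GAS pattern and Socs1 the ISRE pattern. In the stretches below, written 5′ to 3′ along the transcribed strand, capitals mark these patterns with 20 further bases on each side. In the first 4 the patterns stand side by side, Gbp7 has 2 GAS patterns and 1 ISRE pattern, Gbp2 has the ISRE pattern alone and Irf1 the GAS pattern alone.
Tgtp1 (chr11:48992294-48992354, minus strand): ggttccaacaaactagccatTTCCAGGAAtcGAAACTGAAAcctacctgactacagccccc
Tgtp2 (chr11:49064253-49064313, minus strand): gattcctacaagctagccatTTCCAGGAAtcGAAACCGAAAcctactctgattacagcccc
Igtp (chr11:58199491-58199551, plus strand): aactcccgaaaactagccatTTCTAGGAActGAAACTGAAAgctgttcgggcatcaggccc
Irgm2 (chr11:58214882-58214942, plus strand): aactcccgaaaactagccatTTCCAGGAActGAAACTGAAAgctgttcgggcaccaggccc
Gbp7 (chr3:142530210-142530312, plus strand): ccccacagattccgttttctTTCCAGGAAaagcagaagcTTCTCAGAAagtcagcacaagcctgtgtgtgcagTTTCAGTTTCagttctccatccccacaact
Gbp2 (chr3:142620584-142620633, plus strand): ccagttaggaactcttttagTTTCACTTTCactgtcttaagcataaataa
Irf1 (chr11:53769904-53769952, plus strand): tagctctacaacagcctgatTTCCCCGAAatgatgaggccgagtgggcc
These matches describe the letters only, and binding was not measured.

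With the antibody, 5 of the 29 genes rose and none fell. These were Gbp8, Gbp9, Irf8, Ifngr1 and Jak2. At an unadjusted limma p under 0.05, 11 were higher and 0 lower. Over all 15704 genes tested, 4145 had such a p in either direction. A gene is called here when its p from limma, corrected for all tested genes after Benjamini-Hochberg, was under 0.05. The test used log2(TPM + 1) and covered the 15704 genes, 25 of the 29 among them, that reached 1 TPM in 4 or more libraries. Over all genes tested, 7.16% were called higher and 4.48% lower. The log2 fold change was above 0 for 24 of the 25 tested members, against 47% of all genes tested, and its median was 0.65 in the members and -0.014 over all genes. The 4 untested genes were Gbp10, Gbp11, Ido1 and Nos2. A gene at a low level can pass such a minimum because it is high in 1 group, so counts over the 25 do not stand for all 29. Fold changes throughout are on the log2(TPM + 1) scale, which understates the change of low genes.

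The GTPase genes were higher on average with the antibody, but the groups overlapped for every one of them. Libraries spread widely within both groups, most with the bacterium alone. Mean TPM was higher with the antibody for 16 of the 17 GTPase genes, and 0 of the 17 had groups that did not overlap, against 8.02% of all genes tested that were higher without overlap. Their summed level was 492, 273, 447 and 568 TPM in antibody replicates 1 to 4, against 232, 178, 382, 129 and 487 TPM in replicates 1 to 5 of the bacterium alone. Replicates 3 and 5 of the bacterium alone thus lay above antibody replicate 2, and replicates 2 and 4 were the lowest of all 9 libraries. This order of libraries was shared by the family. Replicates 2 and 4 of the bacterium alone were both below replicates 3 and 5 for 17 of the 17 GTPase genes, and replicate 5 was the highest of its group for 16 of them. Antibody replicate 2 was the lowest of its group for 16 of the 17. The median ratio of the highest to the lowest library of a group, over the tested GTPase genes, was 2.04 with the antibody and 3.58 with the bacterium alone. Over all genes tested it was 1.28 and 1.30. The median standard error of the log2 fold change was 0.34 for the 15 tested GTPase genes and 0.095 over all genes tested.

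**Figure D1:**
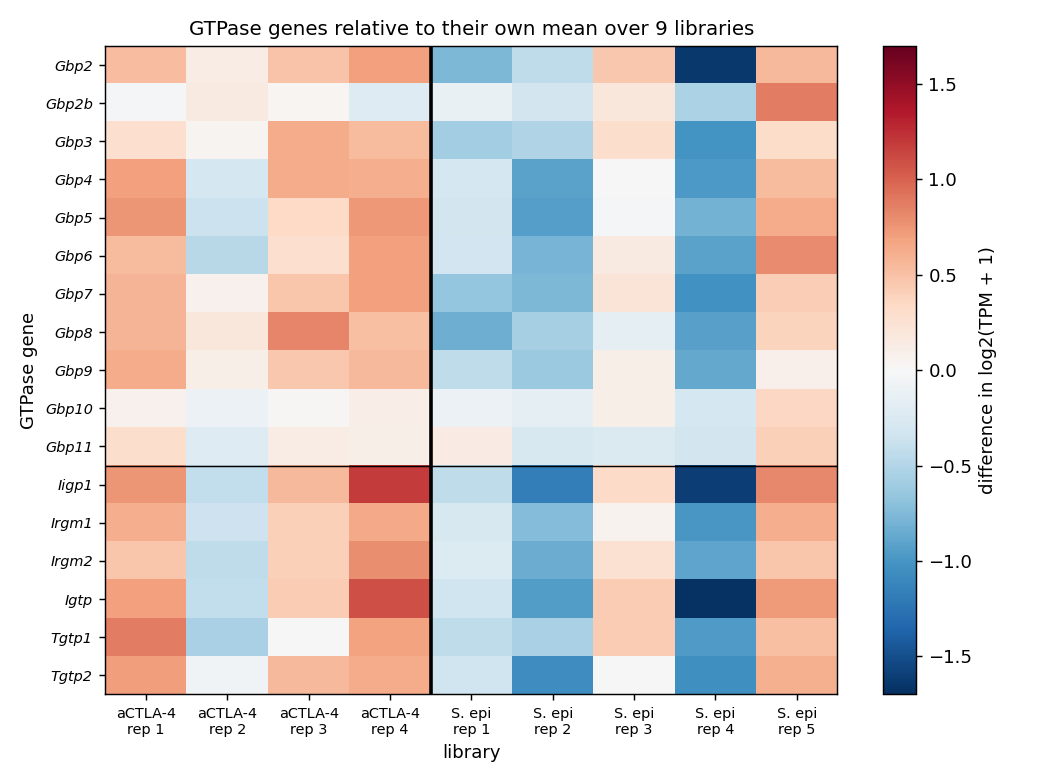
Difference of log2(TPM + 1) from the gene's own mean over 9 libraries, for 17 GTPase genes (rows; guanylate-binding proteins above the line, immunity-related GTPases below) in 4 anti-CTLA-4 libraries (left, aCTLA-4) and 5 libraries of the bacterium alone (right, S. epi). Replicates 2 and 4 of the bacterium alone are blue in every row, and replicate 5 is the highest of its group for 16 of 17 genes.

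The guanylate-binding protein genes lie in a cluster on chromosome 3 (mm10, Gbp5, Gbp7, Gbp3, Gbp2b and Gbp2 between 142496934 and 142638008, plus strand) and a cluster on chromosome 5 (Gbp8, Gbp9, Gbp4, Gbp10, Gbp6 and Gbp11 between 105014153 and 105346472, minus strand). Of the 9 tested, 2 rose and 7 were not called, with a median log2 fold change of 0.74. The genes that rose, Gbp8 and Gbp9, are neighbours at 1 end of the chromosome 5 cluster.

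Gbp8, one of the less studied members, had 5.30, 3.82, 6.55 and 5.02 TPM in the antibody libraries, against 1.37, 1.86, 2.79, 1.24 and 4.495 TPM with the bacterium alone. Only replicate 5 of the bacterium alone reached into the antibody range. It averaged 5.17 ± 1.12 TPM with the antibody and 2.35 ± 1.34 TPM with the bacterium alone (SD, n = 4 and n = 5). On the log2 scale it rose by 0.95 ± 0.26 (SE, limma adjusted p = 0.0453). Gbp9 had 12.8, 8.46, 11.2 and 11.99 TPM with the antibody, against 5.57, 4.74, 8.50, 3.83 and 8.39 TPM with the bacterium alone. Its lowest antibody library, replicate 2, lay just below replicate 3 of the bacterium alone. The log2 fold change was 0.79 ± 0.21 (SE, limma adjusted p = 0.0443). Both calls were near the threshold. In the 9 fits that left out 1 library, Gbp8 was called only without replicate 5 of the bacterium alone, and Gbp9 in 3 fits, and the highest limma adjusted p was 0.105 for Gbp8 and 0.108 for Gbp9.

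Gbp2, the most abundant guanylate-binding protein gene here, encodes a GTPase that attacks pathogen vacuoles. It had 71.6, 53.7, 69.3 and 80.8 TPM in the antibody libraries, against 28.6, 36.2, 68.4, 15.1 and 72.8 TPM with the bacterium alone. The highest and the lowest library of the bacterium alone differed 4.83-fold, and 2 of its 5 libraries lay within the antibody range. Its log2 fold change of 0.82 had a 95% interval of -0.099 to 1.75 and a limma adjusted p of 0.237. Gbp7 and Gbp3 had log2 fold changes of 0.82 and 0.68 with 95% intervals above 0 (from 0.14 and 0.057), but limma adjusted p-values of 0.116 and 0.153. Gbp4, at 0.74, and Gbp5, a promoter of inflammasome assembly, at 0.66, had intervals that reached below 0.

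Gbp2b, long known as Gbp1, was the 1 GTPase gene with a lower mean in the antibody libraries. It had 1.21, 1.52, 1.32 and 0.951 TPM with the antibody, against 1.07, 0.835, 1.603, 0.558 and 3.13 TPM with the bacterium alone. Replicate 5 of the bacterium alone held 108 of its reads, against 40 to 54 in each antibody library. Its log2 fold change was -0.036 (95% interval -0.61 to 0.53), and without that replicate it was 0.18. The sign also turned without replicate 3 of the bacterium alone (0.01) and without antibody replicate 4 (0.031), so it was not settled. Gbp6 had 14.2, 6.55, 11.7 and 16.03 TPM with the antibody, against 7.37, 5.05, 10.7, 4.58 and 17.3 TPM with the bacterium alone, a log2 fold change of 0.48 (limma adjusted p = 0.459). The highest Gbp6 value of all 9 libraries was that of replicate 5 of the bacterium alone.

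Gbp10 and Gbp11 were below the expression minimum. Gbp10 lay between 0.373 and 0.601 TPM with the antibody and between 0.199 and 0.888 TPM with the bacterium alone, with 77 and 86 reads in all. Gbp11 lay between 0.350 and 0.941 TPM with the antibody and between 0.261 and 1.08 TPM with the bacterium alone, with 99 and 95 reads. Exact permutation p-values (two-sided, unadjusted, run for the 4 untested members) were 0.722 for Gbp10 and 0.5 for Gbp11, where the smallest possible is 0.00794. Of all 75-base stretches in the GENCODE transcripts of Gbp6 and Gbp10, 86.0% and 75.5% also occur in transcripts of other genes, chiefly Gm43302, a gene not analysed here. The counting of reads that match several genes is not stated in the labels, so the values of Gbp6 and Gbp10 are uncertain.

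The immunity-related GTPase genes also spread widely within groups, and none of the 6 was called by limma (1 had an unadjusted p under 0.05, and 0 were called on recovered reads). Their log2 fold changes lay between 0.45 and 0.92, with a median of 0.70. Iigp1, which encodes IRGA6, a GTPase that coats parasite vacuoles (mm10 chromosome 18, 60376029 to 60392629, plus strand), had 87.8, 38.4, 76.3 and 119 TPM with the antibody, against 38.3, 22.4, 65.3, 16.5 and 92.3 TPM with the bacterium alone. Its highest value was an antibody library, its lowest replicate 4 of the bacterium alone, and replicates 3 and 5 of the bacterium alone exceeded antibody replicate 2. The log2 fold change of 0.92 had a 95% interval of -0.22 to 2.07 and a limma adjusted p of 0.287.

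Igtp encodes IRGM3, a regulator that holds effector GTPases off the cell's own membranes. It had 59.4, 26.9, 49.0 and 78.5 TPM in the antibody libraries, against 28.3, 18.3, 48.9, 10.6 and 60.3 TPM with the bacterium alone. Of the 5 libraries with the bacterium alone, 3 lay above the lowest antibody library. The other regulators, Irgm1 and Irgm2, had log2 fold changes of 0.59 and 0.56 at limma adjusted p-values of 0.295 and 0.334. Irgm1 had 57.9, 28.9, 49.9 and 58.9 TPM with the antibody, against 30.8, 22.01, 38.9, 18.4 and 57.7 TPM with the bacterium alone.

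Tgtp1 and Tgtp2 encode nearly identical copies of IRGB6, a GTPase that arrives early on parasite vacuoles. Tgtp2 had 19.0, 10.7, 16.9 and 18.0 TPM with the antibody, against 8.64, 4.88, 11.3, 4.94 and 17.5 TPM with the bacterium alone. Antibody replicate 2 was below 2 of the 5 libraries of the bacterium alone. Its log2 fold change was 0.82 (95% interval 0.064 to 1.59, limma adjusted p = 0.155), and that of Tgtp1 was 0.45 (limma adjusted p = 0.494). Of the 75-base stretches in their transcripts, 77.2% of those of Tgtp1 and 85.2% of those of Tgtp2 also occur in transcripts of other genes, mostly the other copy, so the split of reads between them is uncertain.

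Of the 3 transcription factors, Irf8 rose, and the groups did not overlap. Irf8, a factor of monocyte and dendritic cell development (mm10 chromosome 8, 120738639 to 120756692, plus strand), had 14.3, 13.0, 15.8 and 10.2 TPM in the antibody libraries, against 8.16, 7.495, 8.85, 6.51 and 9.50 TPM with the bacterium alone. It averaged 13.3 ± 2.36 TPM with the antibody and 8.10 ± 1.17 TPM with the bacterium alone (SD, n = 4 and n = 5), a log2 fold change of 0.65 ± 0.13 (SE, limma adjusted p = 0.0148). Leaving out any 1 library kept the call (9 of 9 fits, limma adjusted p up to 0.0428). Irf8 also differed from the GTPase genes in its spread, since its highest and lowest libraries of the bacterium alone differed 1.46-fold. Non-overlap upward was seen for 3 of the 25 tested members, which were Irf8, Ifngr1 and Jak2, against 8.02% of all genes tested, and downward for none, against 6.39%.

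Irf1, the early factor that acts on many later response genes, followed the order of the GTPase genes. It had 65.7, 38.9, 58.0 and 88.5 TPM with the antibody, against 40.7, 24.5, 51.5, 22.8 and 65.7 TPM with the bacterium alone. With the bacterium alone, 3 of 5 libraries lay above antibody replicate 2. Its log2 fold change of 0.66 was close to that of Irf8, but the 95% interval was -0.10 to 1.42 and the limma adjusted p 0.255. Batf2, an AP-1 family factor induced by interferons in macrophages, had 5.40, 1.96, 2.36 and 5.49 TPM with the antibody, against 2.03, 2.10, 2.43, 1.52 and 4.74 TPM with the bacterium alone. In both groups the libraries fell apart, into 2 higher and 2 lower ones with the antibody and 1 higher and 4 lower ones with the bacterium alone (limma adjusted p = 0.452).

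None of the 3 tested effector genes was called by limma (2 had an unadjusted p under 0.05, and Gch1 and Acod1 were called on recovered reads). Replicate 5 of the bacterium alone stood apart for Acod1 and Nos2. Acod1 encodes the enzyme that makes itaconate in activated myeloid cells. It had 17.3, 22.3, 12.9 and 14.4 TPM in the antibody libraries, against 1.64, 2.07, 4.28, 0.426 and 16.02 TPM with the bacterium alone. Averages were 16.7 ± 4.12 TPM with the antibody and 4.88 ± 6.38 TPM with the bacterium alone (SD, n = 4 and n = 5), and the log2 fold change of 2.12 ± 0.60 (SE) was the largest of the 25 tested members (limma adjusted p = 0.0512). Without replicate 5 of the bacterium alone, the log2 fold change was 2.64 and the limma adjusted p 0.00457. In that fit 8 members were called higher, which adds Gbp7, Tgtp2 and Acod1, against 6.35% of all genes tested. A fit on recovered reads, added after the data were seen, also called 8 members higher and none lower, against 11.1% and 7.33% of its genes.

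Nos2, which encodes inducible nitric oxide synthase, was below the expression minimum. It had 0.926, 1.08, 1.14 and 0.915 TPM with the antibody, against 0.243, 0.465, 0.216, 0.214 and 1.62 TPM with the bacterium alone. In reads, this was 44, 55, 67 and 58 with the antibody, against 13, 28, 12, 11 and 80 with the bacterium alone. Replicate 5 of the bacterium alone was the highest of all 9 libraries and its other 4 the lowest, and the exact two-sided permutation p was 0.0952 (n = 4 and n = 5).

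Gch1 encodes the first enzyme in the synthesis of tetrahydrobiopterin, the cofactor of nitric oxide synthase. It had 5.07, 5.26, 5.70 and 6.38 TPM with the antibody, against 4.04, 4.46, 5.08, 4.21 and 5.01 TPM with the bacterium alone, and only replicate 3 of the bacterium alone overlapped. The log2 fold change was 0.25 ± 0.086 (SE, limma adjusted p = 0.0958). Ubd, a ubiquitin-like tag for proteasomal breakdown, had 25 reads in all antibody libraries and 16 in all libraries of the bacterium alone, and its log2 fold change of 0.48 had a limma adjusted p of 0.270. Ido1, the tryptophan-degrading enzyme, was hardly detected, with 3, 0, 4 and 3 reads in the antibody libraries and 3, 4, 3, 2 and 3 with the bacterium alone. A count of 0 reads in antibody replicate 2 allows up to 0.178 TPM by counting error (3 reads), which is above the value of 3 of the 5 libraries with the bacterium alone, so a difference was not detectable at this depth.

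Of the 4 genes for the receptor chains, the kinase JAK2 and the inhibitor SOCS1, Ifngr1 and Jak2 rose, and Ifngr2 and Socs1 were not called. Ifngr1, the ligand-binding chain of the receptor (mm10 chromosome 10, 19591949 to 19610227, plus strand), had 71.4, 64.4, 77.2 and 68.4 TPM in the antibody libraries, against 43.6, 56.1, 45.6, 58.3 and 56.4 TPM with the bacterium alone. Every antibody library lay above every other library. Its mean was 70.4 ± 5.39 TPM with the antibody and 52.0 ± 6.85 TPM with the bacterium alone (SD, n = 4 and n = 5), a log2 fold change of 0.44 ± 0.10 (SE, limma adjusted p = 0.0246). Its call ended when antibody replicate 1, 3 or 4 was left out (limma adjusted p up to 0.0623). Jak2, the kinase bound to the IFNGR2 chain and also to several cytokine receptors (mm10 chromosome 19, 29251803 to 29313092, plus strand), had 17.1, 14.8, 17.7 and 17.4 TPM with the antibody, against 12.4, 12.7, 13.3, 12.2 and 14.5 TPM with the bacterium alone. These groups did not overlap either, although antibody replicate 2 and replicate 5 of the bacterium alone came within 0.5 TPM of each other. The log2 fold change was 0.34 ± 0.072 (SE, limma adjusted p = 0.0173), and 9 of 9 fits without 1 library called it (limma adjusted p up to 0.0486). Jak2 was not called when the replicate number was fitted as a block (limma adjusted p = 0.0622).

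Ifngr2, the signalling chain, had 21.6, 26.1, 24.9 and 24.8 TPM with the antibody, against 22.9, 17.5, 21.2, 20.2 and 18.2 TPM with the bacterium alone. Replicate 1 of the bacterium alone lay above antibody replicate 1, and the log2 fold change of 0.27 had a limma adjusted p of 0.0780. Socs1, an inhibitor of JAK kinases induced by the same signal, had 44.3, 19.0, 25.1 and 43.7 TPM with the antibody, against 24.2, 23.2, 30.2, 24.0 and 44.1 TPM with the bacterium alone. Its groups covered the same range, and the log2 fold change of 0.13 had a 95% interval of -0.50 to 0.76 (limma adjusted p = 0.807). Replicate 5 was again the highest library of the bacterium alone for Socs1 and Jak2.

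**Figure D2:**
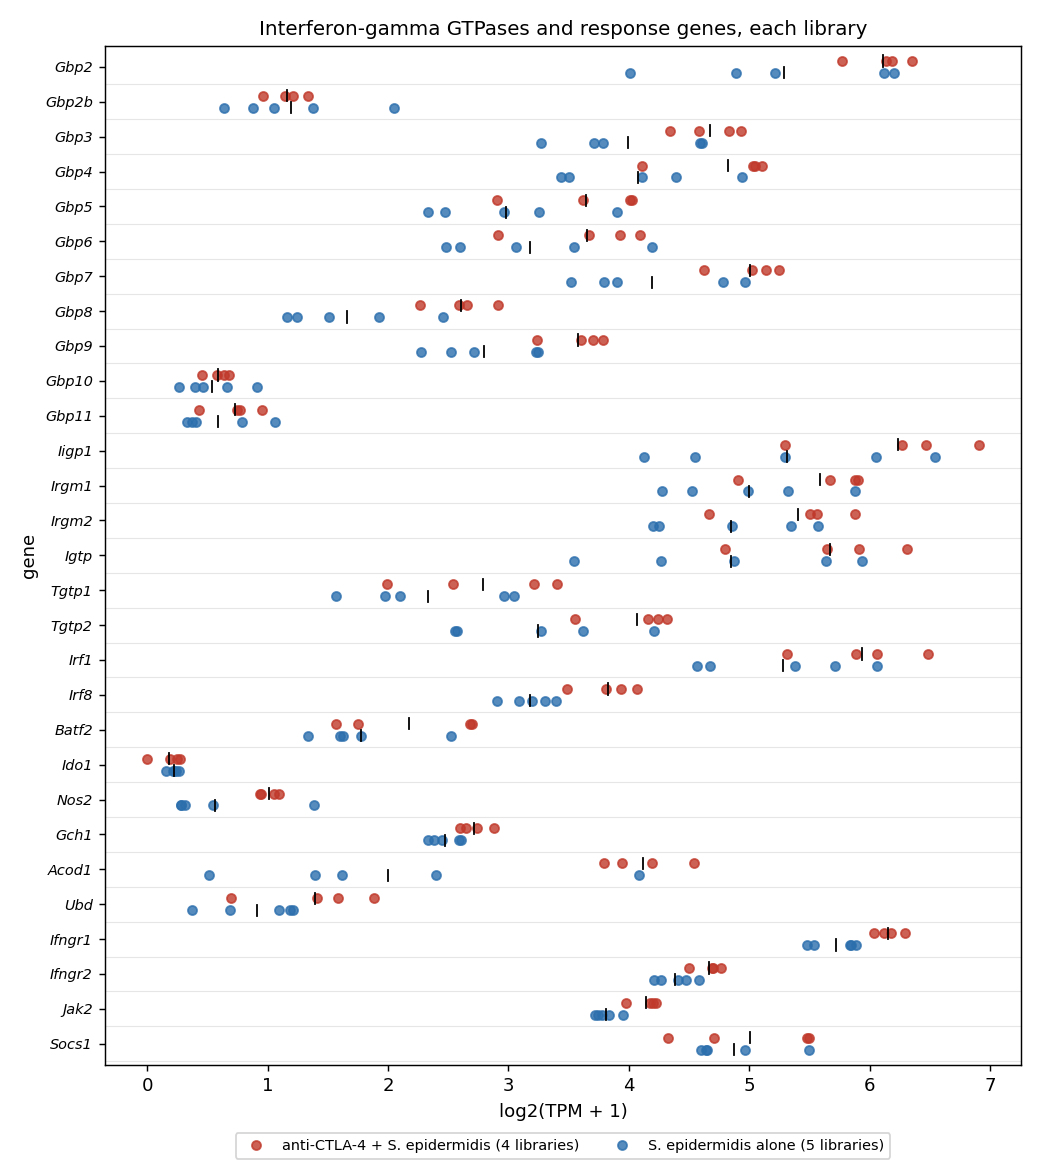
Level of each of the 29 genes as log2(TPM + 1) in every library (points; anti-CTLA-4 above, S. epidermidis alone below; black ticks are group means of the plotted values, n = 4 and n = 5). The 2 groups separate for Irf8, Ifngr1 and Jak2, while the GTPase genes overlap, with means apart for most of them.

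**Figure D3:**
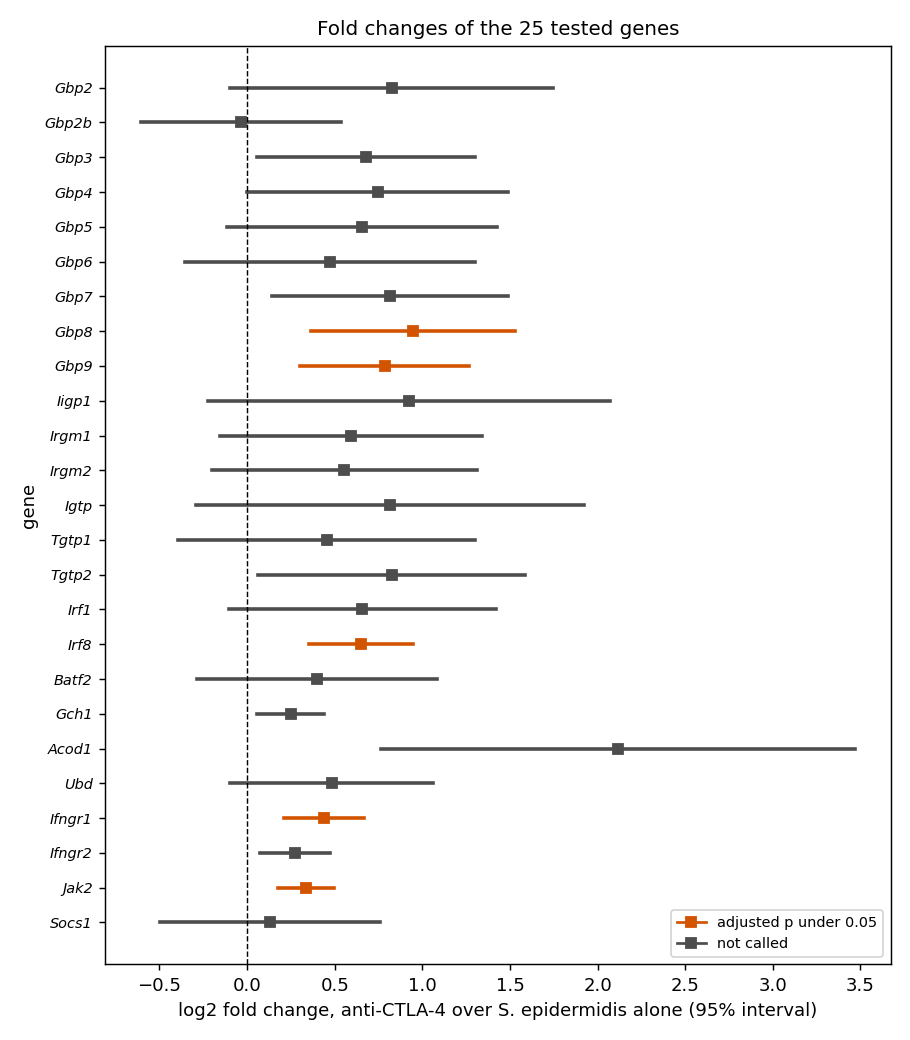
Log2 fold change of anti-CTLA-4 over the bacterium alone with its 95% interval from limma, for the 25 tested genes. Intervals are wide for the GTPase genes, up to -0.29 to 1.92 for Igtp and -0.22 to 2.07 for Iigp1, and narrow for Jak2 (0.18 to 0.50) and Ifngr1 (0.21 to 0.67).

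Interferon gamma itself was scarce. Ifng had 1.21, 0.988, 1.22 and 1.48 TPM in the antibody libraries, against 0.134, 0.120, 0.260, 0.280 and 2.04 TPM with the bacterium alone, or 8, 7, 10 and 13 reads against 1, 1, 2, 2 and 14 reads. Replicate 5 of the bacterium alone, the highest of its group for 16 of the 17 GTPase genes, held the most Ifng of all libraries. Replicate 3, which stood beside it for the GTPase genes, held only 2 Ifng reads. Among the antibody libraries, replicate 2 was lowest both for Ifng and for the summed GTPase level. These Ifng orders rest on few reads, 7 against 8 in antibody replicates 2 and 1, and 14 against 13 for the highest libraries. Ifng had a log2 fold change of 0.62 ± 0.28 (SE, limma adjusted p = 0.192).

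Of 22 other genes of the pathway, 9 rose, none fell (1, Ptpn11, was lower at an unadjusted limma p under 0.05) and 13 were not called, with a median log2 fold change of 0.58. The 4 with the smallest p were Ptpn6, which encodes the phosphatase SHP-1 of blood cells (log2 fold change 0.64, limma adjusted p = 0.00344), Irf2, an IRF1 antagonist (0.31, 0.00977), Ciita, the master activator of MHC class II genes (0.69, 0.0128), and the immunoproteasome subunit gene Psmb8 (1.25, 0.0181). Jak1 was not called, at a log2 fold change of 0.033 (limma adjusted p = 0.793). The genes Socs3 and Usp18, for inhibitors of cytokine signalling, had log2 fold changes of 0.86 and 0.47 at limma adjusted p-values of 0.0598 and 0.0573. For Nlrc5, the activator of MHC class I genes, these were 0.39 and 0.199. The chemokine genes Cxcl9 and Cxcl10, induced by interferon gamma to attract T cells, had log2 fold changes of 0.68 and 1.02 at limma adjusted p-values of 0.397 and 0.388. Both were highest in replicate 5 of the bacterium alone, with 77.1 TPM of Cxcl9 and 87.8 TPM of Cxcl10.

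Some of the genes listed as other interferon-inducible GTPases were called. Over the tested genes of this list, the median ratio of the highest to the lowest library was 1.49 with the antibody and 2.64 with the bacterium alone. Of 10 tested, 5 rose and 5 were not called, and the median log2 fold change was 0.78. The count was 8 of 10 without replicate 5 of the bacterium alone and 1 of 6 with a minimum of 5 TPM, which leaves fewer genes. Mx1 and Mx2, antiviral dynamin-like GTPase genes, rose by log2 fold changes of 1.20 and 0.75 (limma adjusted p = 0.00903 and 0.0145), and the very large GTPase gene Gvin1, named after its values were seen, by 0.71 (0.0163). The genes 9930111J21Rik1 and 9930111J21Rik2, which lie near Tgtp1 and Tgtp2 on chromosome 11, rose by 0.60 and 0.61 (limma adjusted p = 0.00665 and 0.00439). For 9930111J21Rik2 the minimum of 1 TPM was met in the antibody libraries alone (1.62, 1.71, 1.22 and 1.38 TPM, against 0.624, 0.727, 0.509, 0.600 and 0.676 TPM with the bacterium alone), so a gene like it could enter the test only by being high there. The immunity-related GTPase genes Ifi47 and Gm12250 (IRGD and IRGB10) were not called, with log2 fold changes of 0.99 and 0.81 at limma adjusted p-values of 0.109 and 0.292. Irgq, named after its values were seen, was not called either, with a log2 fold change of -0.13. Its spread was narrow, at 1.28-fold with the antibody and 1.08-fold with the bacterium alone. Type I interferon antiviral genes had a median log2 fold change of 0.96, and 17 of 22 rose. That count was 10 without replicate 2 of the bacterium alone, 11 without antibody replicate 2 or 3, and 9 without antibody replicate 4. It was 21 of 21 tested without replicate 5 of the bacterium alone, and 22 of 22 at a threshold of 0.1 and on recovered reads. The smallest p-values were those of Bst2, which tethers virus particles (log2 fold change 0.94, limma adjusted p = 0.00346), the OAS family genes Oasl1 and Oas3 (1.06 and 1.09, 0.00372 and 0.00611), and Ifit3b (0.92, 0.00697). For this list, the median ratio of the highest to the lowest library was 1.37 with the antibody and 2.83 with the bacterium alone. Their summed level was 356, 376, 379 and 390 TPM with the antibody, against 119, 184, 239, 149 and 256 TPM with the bacterium alone, so the groups did not overlap for the sum. Replicates 3 and 5 were the highest of the bacterium alone here too, but antibody replicate 2 was not low. No test compared these lists with the members.

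Most markers of T cells, monocytes and macrophages moved with the groups. Of 11 tested T and natural killer cell markers (12 listed), 9 rose, and the list summed to between 108 and 145 TPM with the antibody and between 35.1 and 54.2 TPM with the bacterium alone. Cd4 and Klrd1 were not called (limma adjusted p = 0.19 and 0.137). Ncr1, untested, averaged 0.489 TPM with the antibody and 0.479 TPM with the bacterium alone. Natural killer cells were not tested on their own. Of 10 monocyte and macrophage markers, 9 rose, and they summed to between 750 and 1147 TPM with the antibody and between 423 and 637 TPM with the bacterium alone. Antibody replicate 2, lowest for the GTPase genes, had the highest monocyte and macrophage sum of all libraries. The neutrophil markers summed to 1508, 1918, 2397 and 4458 TPM with the antibody, against 109, 452, 1336, 106 and 1478 TPM with the bacterium alone, with 3 of 5 tested (6 listed) called higher. Most of this sum was S100a8 and S100a9, which keratinocytes also express and which were not called (limma adjusted p = 0.0821 and 0.115). Replicates 3 and 5 were the highest and replicate 4 the lowest of the bacterium alone for the sum. Csf3r and Cxcr2, both called higher (limma adjusted p = 0.00931 and 0.0377), also had replicates 3 and 5 highest and replicate 4 lowest there. The neutrophil marker Retnlg had another order, with 4.28, 2.17, 4.08 and 2.04 TPM with the antibody, against 0.345, 2.15, 0.999, 0.359 and 0 TPM with the bacterium alone. The latter values came from only 1, 7, 3, 1 and 0 reads. Ly6g was at 0 in 8 libraries. None of 7 dendritic and Langerhans cell markers was called by limma (3 had an unadjusted p under 0.05, against 4145 of all 15704 genes tested). They summed to between 23.3 and 28.0 TPM with the antibody and between 22.6 and 33.8 TPM with the bacterium alone. None of 5 skeletal muscle markers was called by limma, but all 5 had log2 fold changes below 0 (median -0.44) and 3 an unadjusted p under 0.05. Those markers summed to between 602 and 916 TPM with the antibody and between 750 and 1178 TPM with the bacterium alone. The part of cell numbers in the members' levels was not tested.

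**Figure D4:**
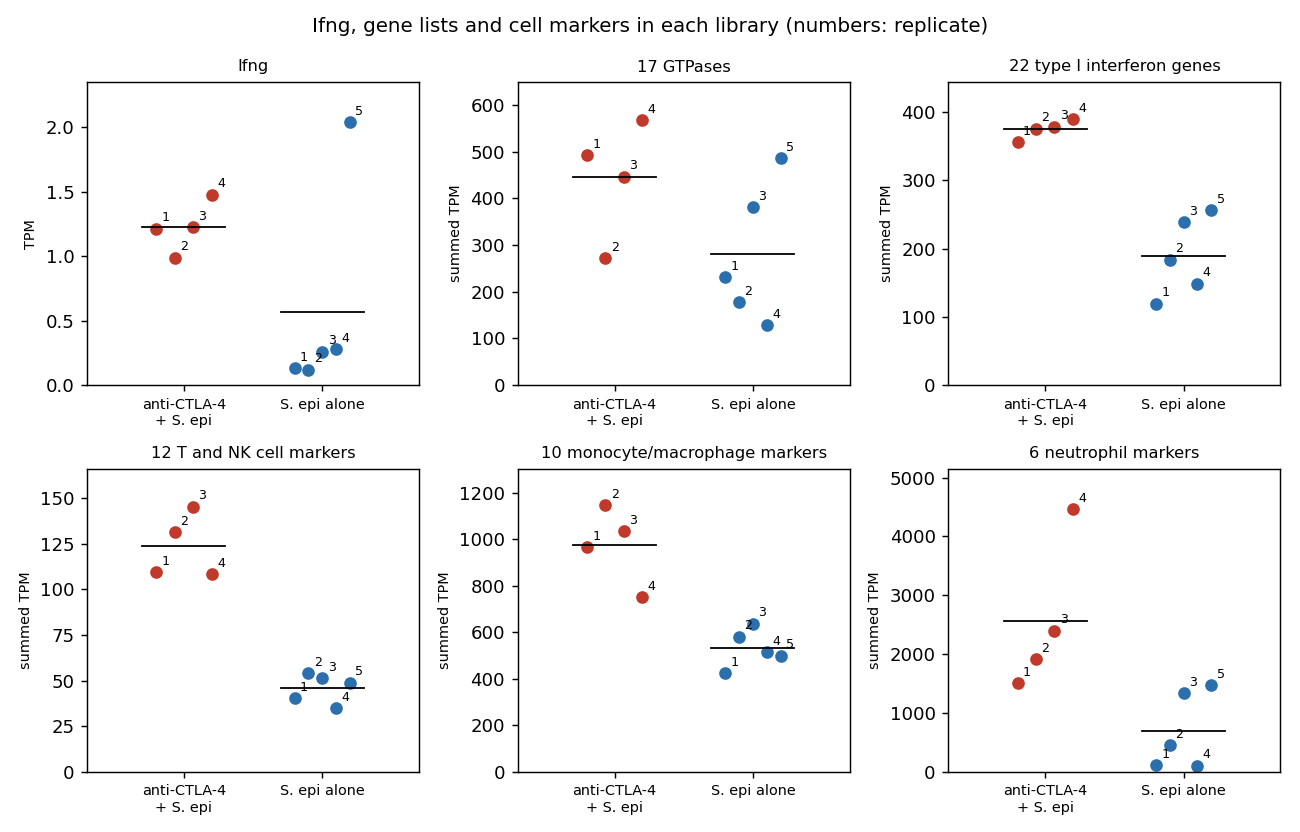
TPM of Ifng and summed TPM of gene lists in each library (points, labelled with the replicate number; lines are group means), with 4 anti-CTLA-4 libraries at left and 5 of the bacterium alone at right in each panel. Replicate 5 of the bacterium alone is highest for Ifng (2.04 TPM), and replicates 3 and 5 reach the antibody range for the GTPase genes but not for the type I interferon genes or the T cell and macrophage markers.

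The order of levels among the members depended on how length was counted. By the deposited TPM, per base of genomic span and averaged over 9 libraries, Iigp1 (61.8), Ifngr1 (60.2), Gbp2 (55.2) and Irf1 (50.7) were the highest and Ido1 (0.153) the lowest. Neighbours in this order did not differ beyond their spread, since the libraries of Iigp1 alone ran from 16.5 to 119 TPM. Recomputed as RPKM on the longest GENCODE M21 transcript, Ifngr1 came first at 66.4, before Gbp2 at 48.9 and Iigp1 at 42.4. Jak2, with a span 12.2 times its transcript length, stood at rank 13 by TPM and at rank 4 per transcript length. Socs1, whose listed span of 1727 bases is shorter than its longest GENCODE transcript (2908 bases), stood at rank 8 by TPM and at rank 21 per transcript length. The labels do not state whether reads were counted over exons or over the whole span, and comparisons between groups use the same length for a gene in every library.

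**Figure D5:**
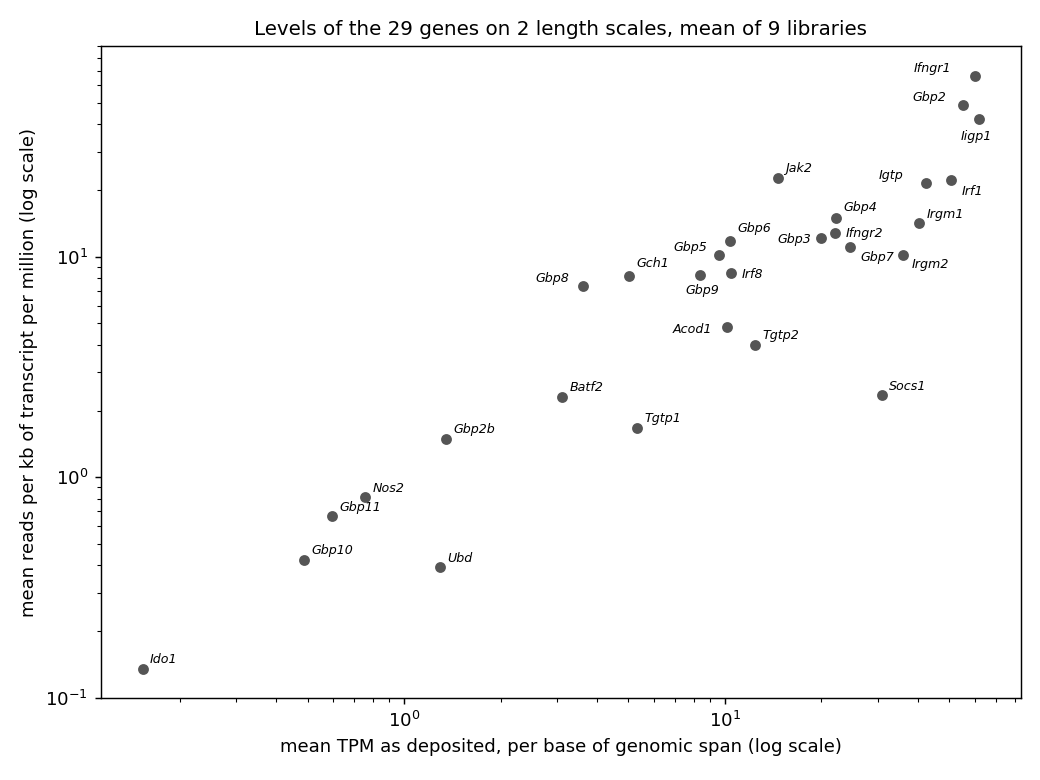
Mean level of the 29 genes over 9 libraries, as deposited TPM per base of genomic span (x axis, log scale) against RPKM computed on the longest transcript (y axis, log scale). Socs1 lies far below the other genes of similar TPM, and Jak2 above them.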

How the data were processed

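The deposited table gives TPM per gene and library, rounded to 3 decimals, with gene positions. The submitters' processing notes name mm10 as the build and STAR, DESeq2 and HOMER as tools, without roles or versions. No strand setting is stated in the labels. The 15704 genes that reached 1 TPM in 4 or more libraries were tested with limma 3.58.1 (R 4.3.3) on log2(TPM + 1), with a variance trend and no covariate. P-values were two-sided and adjusted over all genes tested. The fit was tested on simulated data. Members below the minimum were compared by an exact permutation test, 4 in all and unadjusted. Reads were recovered as TPM times the listed length over 1 constant per library. With a wrong constant, 15.8% to 16.5% of values came out whole. Intervals of log2 fold changes are those of limma and reflect the spread between libraries. The floor given for Ido1 covers counting error only. The ribosomal entries Rn45s and Mir6236 held 30.6% to 40.2% of the listed TPM and 6.35% to 8.66% of reads. Members, lists and tests were chosen with earlier results of these data known. Text named every member, 11 fixed pathway genes (1 of them not reported here) and the 4 smallest p-values of each further list. Alternatives were other pseudocounts, minimums, scalings and variance settings, a replicate block, a threshold of 0.1, and leaving out each library. A fit on recovered reads was added after the data were seen.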

Additional observations from a re-analysis of the deposited data

Results flagged for a closer look

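In 40 genes and 2 groups, a library stood apart from the rest of its group in 6 of 80 sets of values, by the gap to its neighbour relative to the group's range. Chance flags about 1 in 20. In 4 of the 6 the library was replicate 5 of the bacterium alone, with 4.74 TPM of Batf2, 1.62 TPM of Nos2, 16.02 TPM of Acod1 and 2.04 TPM of Ifng. The others were antibody replicate 2 for Gbp4 (16.2 TPM, the lowest of its group) and antibody replicate 1 for Cxcl9 (37.3 TPM, the lowest of its group). Groups of 4 and 5 libraries limit what such a gap can show.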

How the results depend on the processing

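The count of members called higher, 5 of 25 as reported, was 3 of 29 with no expression minimum and 3 of 25 with array weights. It was 8 of 25 at a threshold of 0.1 and 8 of 27 on recovered reads. Over all genes these settings called 991 of 22100, 1014 of 15704, 1594 of 15704 and 1831 of 16500 higher. Leaving out 1 library gave between 2 and 8 of 25 members. It was 3 without replicate 1, 2 or 4 of the bacterium alone, 2 without antibody replicate 1, 3 or 4, and 8 without replicate 5 of the bacterium alone, when Gbp7, Tgtp2 and Acod1 were called as well. Over all genes, fits without antibody replicate 1, 3 or 4 called 918 of 15574, 706 of 15528 and 876 of 15563 higher. The fit without replicate 5 of the bacterium alone called 992 of 15612. No member was called lower in any of these fits. The recovered reads called Gch1, Acod1 and Ifngr2 besides the 5, among 11.1% of genes called higher. The count of all genes called higher (1124) was 1831 on recovered reads and between 706 and 1094 without 1 library, lowest without antibody replicate 3. The count called lower (704) was 1429 with quantile normalization, 1313 at a common median, 1306 with the 50 most abundant genes left out of the total, 1260 at a threshold of 0.1 and 1210 on recovered reads. Without 1 library it was between 337 and 703, and lower by over 1.5 times without replicate 1, 2 or 4 of either the bacterium alone or the antibody. The median log2 fold change over all genes stayed between -0.042 and 0.016 in all fits. The count of other pathway genes called (9) was between 4 and 11 without 1 library, with 5 without replicate 1 or 2 of the bacterium alone and 4 without antibody replicate 3 or 4. With quantile normalization 1314 genes were higher beside those 1429 lower, at a common median 1302 beside 1313, and without the 50 most abundant 1205 beside 1306. The cause of these shifts was not tested.

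With the replicate number as a block, 5 members were called (Gbp4, Gbp8, Tgtp2, Irf8 and Acod1), with 593 genes higher and 88 lower in all. That fit takes no information on the difference from replicate 5 of the bacterium alone, which has no partner. Whether the numbers pair the libraries is not stated in the labels. Deviations of same-numbered libraries correlated at -0.0086, 0.018, -0.091 and -0.093, and none of the 4 antibody libraries matched its own number best. These correlations show no strong shared deviation but cannot exclude a pairing. The sign of Gbp2b turned at a pseudocount of 0.1 (log2 fold change 0.017), with the block (0.18), without replicate 3 (0.010) or 5 (0.18) of the bacterium alone, without antibody replicate 4 (0.031) and on recovered reads (0.068), and was lowest without replicate 4 of the bacterium alone (-0.17). Socs1 turned without antibody replicates 1 and 4 (-0.034 and -0.028), and was highest without antibody replicate 2 (0.36). Gbp10 turned without replicate 4 of the bacterium alone (exact permutation p = 0.857, range without 1 library 0.229 to 0.943), and Ido1 without antibody replicate 2 (exact permutation p = 0.625, range 0.268 to 0.8). For Ido1, Ubd, Ifng, Gbp10 and Gbp11 the number of reads limits the precision.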
